A study of Mus musculus with 48 samples.

Results

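The genes described here are 46 nuclear genes of the mitochondrial respiratory chain, of 54532 genes in the deposited count table. They were chosen by symbol, from what their products do: the subunits of complexes II and III, cytochrome c, the complex IV subunits Cox5a, Cox5b, Cox6b1, Cox6c, Cox7b and Cox7c, and the factors that assemble these complexes. The choice was made with earlier results of these data known. The 46 genes fall into 20 structural genes, which encode parts of the finished chain, and 26 assembly genes, whose products build it and do not stay in it. Of the 46 genes, 45 had enough counts to be tested. The exception, Sco2, a copper chaperone of complex IV, had 0 counts in all 48 libraries, and 91.8% of its exonic bases are shared with exons of other genes (Ncaph2 and Tymp), so whether it was transcribed cannot be told from this table.

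Gastrocnemius, a mostly fast-twitch calf muscle, was collected from 48 mice after 21 days of oral gavage with perfluorooctane sulfonate (PFOS), a persistent fluorinated surfactant. The stated subject of the study was mitochondrial metabolism in skeletal muscle. The dose was 0, 1 or 10 mg/kg/day (17, 16 and 15 mice). Each dose was given to females and males of the genotypes hCYP2B6-Tg, mice carrying the human drug-metabolising gene CYP2B6, and Cyp2b-null, mice lacking mouse Cyp2b genes. The labels give no age, no promoter for the transgene, and do not say whether the hCYP2B6-Tg mice also lack mouse Cyp2b genes. Every group held 4 mice except the hCYP2B6-Tg males at 0 (5 mice) and the Cyp2b-null males at 10 mg/kg/day (3 mice). Sex and genotype together are called a stratum here, and there were 4 strata.

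The respiratory chain passes electrons from metabolic fuels to oxygen. Complex II (succinate dehydrogenase) also belongs to the citric acid cycle, complex III (cytochrome bc1) reduces the mobile carrier cytochrome c, and complex IV (cytochrome c oxidase) hands the electrons to oxygen, using haem and copper. Complexes III and IV combine nuclear-encoded subunits with subunits encoded in mitochondrial DNA, and each complex needs dedicated factors that insert cofactors and join the parts. Muscle depends on this machinery for sustained contraction.

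Library totals were 11571142 to 19921061 counts. The extraction text of the labels names liver, whereas the tissue field names gastrocnemius: the muscle transcript Ckm had 147882 to 269188 counts per library, and the liver transcript Alb had a median of 1 count and 27859 in 1 library. That library (Cyp2b-null male, 1 mg/kg/day, replicate 2) and 5 others with the lymph node transcript Glycam1 at 41 to 790 counts stood apart: hCYP2B6-Tg female replicate 4 at 0, and at 10 mg/kg/day hCYP2B6-Tg female replicate 1, Cyp2b-null female replicate 3, hCYP2B6-Tg male replicate 3 and Cyp2b-null male replicate 3. Library numbers in the labels rose with dose inside every stratum, so handling and dose cannot be told apart. Several whole-library measures differed between doses, marker counts being those at 10 against 0 mg/kg/day. Mitochondrially encoded transcripts took 10.6% ± 1.33 (SD, n = 17) of counts at 0 and 7.66% ± 1.27 (SD, n = 15) at 10 mg/kg/day, 8 of 9 adipocyte markers rose (summed 341.3 to 860.1 CPM at 0 against 610.8 to 2817 CPM at 10 mg/kg/day), 4 of 5 lymph node markers rose (0.634 to 55.3 against 0.282 to 95.2 CPM), 2 of 4 macrophage markers rose (2.63 to 33.1 against 8.86 to 27.9 CPM), and 6 of 7 skeletal muscle markers fell (summed 119600 to 176600 against 59480 to 131600 CPM). For the lymph node markers, the libraries named above with Glycam1 had 8.87 to 95.2 CPM at 10 mg/kg/day and the other mice at that dose 0.282 to 1.35 CPM. At 0 the library named above with Glycam1 had 55.3 CPM and the other controls 0.634 to 2.50 CPM. All 4 fibroblast markers passed, Col1a1 (-2.05) and Col3a1 (-2.32) lower and Dcn (0.74) and Pdgfra (0.46) higher, and of 4 tested liver markers Cyp2e1 (2.45) rose. Of 7 slow fibre markers 0 passed (median 0.59). Their summed level was 35.6 to 6527 CPM at 0 and 180.5 to 6186 CPM at 10 mg/kg/day. Highest at these doses were Cyp2b-null male replicate 3 and hCYP2B6-Tg male replicate 2. By stratum their median change was 2.91 in hCYP2B6-Tg males (2 passed) and -2.19 in Cyp2b-null males (0 passed). In females it was 0.82 (hCYP2B6-Tg) and 0.92 (Cyp2b-null). The 20 most abundant genes took 36.4% ± 1.42 (SD, n = 17) of counts at 0 and 31.2% ± 2.96 (SD, n = 15) at 10 mg/kg/day, and the mean TMM scaling factor was 0.950 and 1.11. Of the defining adipocyte markers none was at 0 throughout, and Adipoq had 1 to 2195 counts. The part of these shifts in the results below was not tested, except where values are given that omit the 6 libraries or that adjust for adipocyte markers. In bulk muscle, fewer cells of a type and less RNA per cell cannot be told apart.

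Without PFOS the structural genes were the more abundant class. Their levels at 0 mg/kg/day, as CPM (counts scaled to a common library size) per kilobase of gene model, ran from 74.5 for Sdhc to 316.6 for Uqcrfs1, with a median of 165.4. Assembly genes ran from 0.554 for Cox17 to 124.4 for Cox14, with a median of 8.15. The 2 classes overlapped only through Cox14, whose product binds newly made COX1 protein, and Uqcc2, a factor for the synthesis of cytochrome b (98.5 CPM per kilobase). The lowest 8 of the 45 tested genes, all assembly genes, lay between 0.554 and 2.99 CPM per kilobase.

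Promoters are shown for 5 genes whose transcripts were lower at 10 mg/kg/day and which carry a letter match to a motif of a factor known for nuclear respiratory genes: 3 structural genes and, for contrast, 2 assembly genes. The RefSeq promoter table (build GRCm38.p6) held 38 promoters for 37 of the 46 genes, each from 250 bases before to 50 after the transcription start. Both strands were searched for GCATGCGC (core of the NRF1 site), TCAAGGTCA (element bound by oestrogen-related receptors), CCGGAAGT (ETS family, which includes NRF2/GABP) and AAGATGGC (YY1); no 2 matches overlap in the promoters printed. The stretches run 5′ to 3′ from 150 bases before to 20 bases after the start, with matches in capitals.
Cycs (chr6:50566550-50566719, minus strand): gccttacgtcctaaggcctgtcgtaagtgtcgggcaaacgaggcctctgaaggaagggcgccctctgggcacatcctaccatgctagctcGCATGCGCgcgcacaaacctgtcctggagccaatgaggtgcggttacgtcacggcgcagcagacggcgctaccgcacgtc
Sdhb (chr4:140961121-140961290, plus strand): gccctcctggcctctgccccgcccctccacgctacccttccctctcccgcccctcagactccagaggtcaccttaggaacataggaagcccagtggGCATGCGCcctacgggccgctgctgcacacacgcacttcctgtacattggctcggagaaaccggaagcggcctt
Uqcr11 (chr10:80406802-80406971, minus strand): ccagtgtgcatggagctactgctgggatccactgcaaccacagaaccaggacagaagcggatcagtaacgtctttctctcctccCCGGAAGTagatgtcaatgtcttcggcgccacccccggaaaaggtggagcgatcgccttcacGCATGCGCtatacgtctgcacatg
Ttc19 (chr11:62281323-62281492, plus strand): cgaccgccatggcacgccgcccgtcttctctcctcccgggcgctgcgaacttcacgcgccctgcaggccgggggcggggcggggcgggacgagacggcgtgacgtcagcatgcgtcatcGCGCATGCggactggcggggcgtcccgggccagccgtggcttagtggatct
Bcs1l (chr1:74588139-74588308, plus strand): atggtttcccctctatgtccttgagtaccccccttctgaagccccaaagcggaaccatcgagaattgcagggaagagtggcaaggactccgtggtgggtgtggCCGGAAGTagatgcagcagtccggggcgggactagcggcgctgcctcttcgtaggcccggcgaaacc

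The NRF1 core lay 60 bases before the start in Cycs, 54 before in Sdhb, 4 before in Uqcr11 and, on the reverse strand, 31 before in Ttc19, counted to its first base. In Uqcrc1 it was matched on both strands, 30 and 32 bases after the start, as overlapping matches of a near-palindrome. Of structural promoters 4 of 14 (28.6%) held it and of assembly promoters 1 of 24 (4.17%), beside 2.71% of all 32851 promoters. The ETS core was in 7 of the 38 promoters (18.4%, against 3.89% of all): Uqcr11 and Uqcrh among structural genes, and Bcs1l, Cox10, Cox14, Cox15 and Cox16 among assembly genes. YY1 letters were in Cox10, Cox20 and Uqcc2 (7.89%, against 2.75% of all), and the receptor element only in Sdhd (2.63%, against 0.423% of all). A match is a description of letters and not a bound site. Genes with a match were on both sides of the expression results: Cox16, with an ETS match, did not pass the test at 10 mg/kg/day.

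At 10 against 0 mg/kg/day, averaged over the 4 strata, all 20 structural genes fell and 19 of 25 tested assembly genes fell, while none of the 45 rose. Of all 15583 genes tested, 47.5% passed in either direction and 22.5% fell. The structural genes changed by a median log2 fold change of -0.61 (range -0.84 to -0.45) and the assembly genes by -0.40 (range -0.79 to 0.25), beside a median of 0.04 over all genes tested. Genes were called with edgeR's quasi-likelihood test at a Benjamini-Hochberg adjusted p under 0.05. Library size scaling bears on this count: on unscaled totals the median over all genes shifted from 0.04 to 0.26 and the share of higher among called genes from 52.6 to 82.0%. There the 20 structural genes were still called lower, but 14 assembly genes were lower and 5 (Cox16, Cox17, Cox18, Cox19 and Surf1, 0.24 to 0.46) were called higher. With adipocyte markers as a covariate 36 of the 45 genes fell, and without the 6 libraries named above 37 fell. Over all genes 2704 of 15583 and 2837 of 15581 fell in these fits, against 3511 of 15583 in the main fit. The members lost were the assembly genes Uqcc2 and Cox20 and, with the covariate, Sdhaf4.

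**Figure D1:**
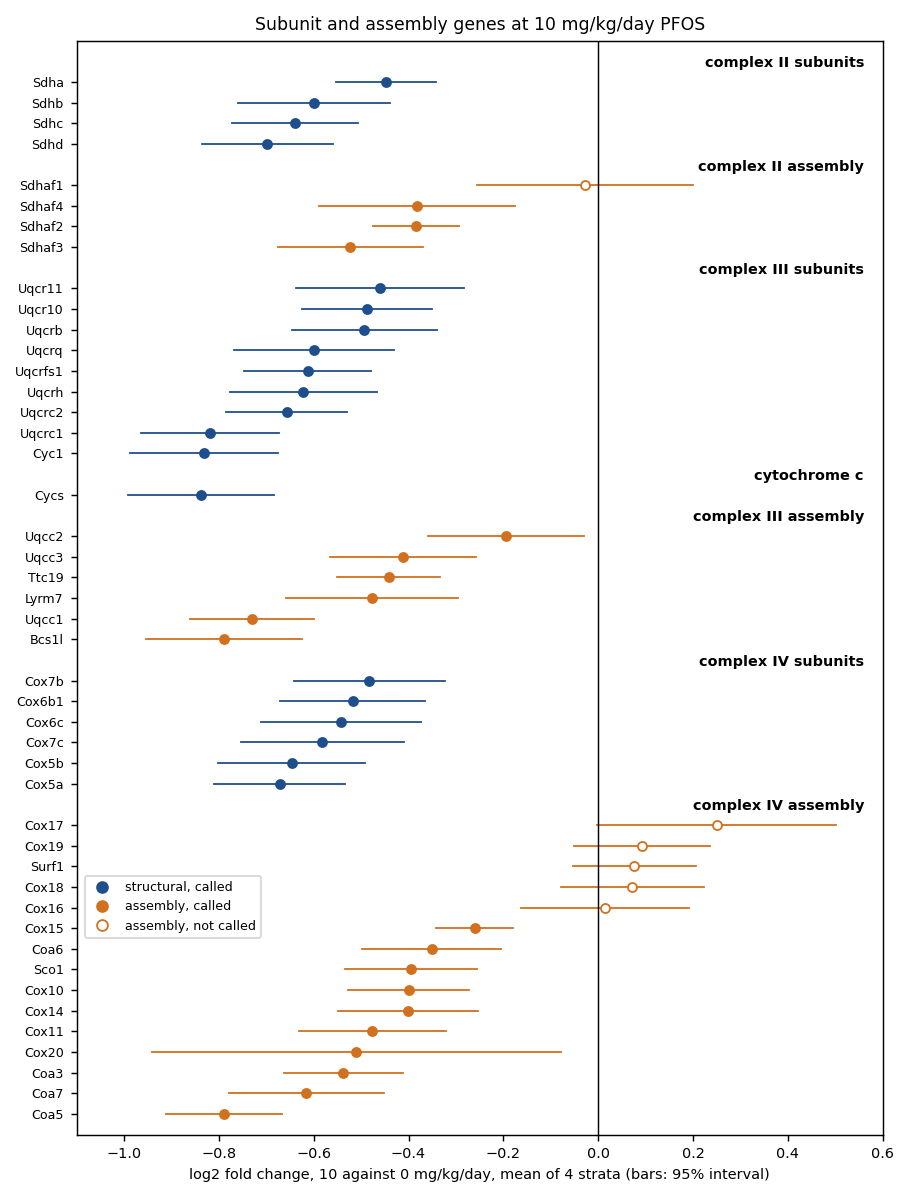
Log2 fold change at 10 against 0 mg/kg/day PFOS (x axis, average of 4 strata) for the 45 tested genes, grouped by role. Points are estimates, bars 95% intervals, and open points genes that did not pass the test. All 20 structural genes lie between -0.84 and -0.45, and the 6 open points are assembly genes.

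Complex II, which oxidises succinate, fell in all 4 subunits (median -0.62). Sdhd, a membrane anchor, had 189.6 to 295.3 CPM at 0 (median 236.9) and 110.4 to 195.3 CPM at 10 mg/kg/day (median 152.7), a log2 fold change of -0.70 ± 0.07 (SE, adjusted p = 8.45e-11). The ranges overlapped narrowly over all mice, and within each stratum every dosed mouse was below every control. Sdhc, the other anchor, ran from 192.8 to 300.3 CPM at 0 (median 234.4) and from 124.4 to 203.9 CPM at 10 mg/kg/day (median 156.1), a change of -0.64 ± 0.07 (adjusted p = 2.49e-10). Sdhb, the iron-sulfur subunit whose promoter with an NRF1 core is shown above, had 279.4 to 489.2 CPM at 0 (median 382.1) and 190.2 to 291.1 CPM at 10 mg/kg/day (median 255.4), a change of -0.60 ± 0.08 (adjusted p = 5.36e-08). Within strata, both genes overlapped only in the hCYP2B6-Tg males. Sdha, the flavoprotein with the active site, had the smallest change of the structural genes (-0.45), yet its 15 dosed mice (577.6 to 816.3 CPM) were all below the 17 controls (852.6 to 1187 CPM).

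The complex II assembly factors split. Sdhaf2, which helps attach the flavin to Sdha, had 33.05 to 45.07 CPM at 0 (median 39.4) and 25.51 to 34.01 CPM at 10 mg/kg/day (median 29.7), a change of -0.38 ± 0.05 (adjusted p = 4.95e-09). Sdhaf3, a factor for the iron-sulfur subunit, ran from 10.71 to 17.74 CPM (median 14.6) and from 6.201 to 13.87 CPM (median 10.4) at the same doses, a change of -0.52 ± 0.08 (adjusted p = 3.63e-07). The ranges of the doses overlapped in both genes, and within strata Sdhaf2 overlapped only in the hCYP2B6-Tg males and Sdhaf3 in the females of both genotypes. Sdhaf4, which protects the flavinated subunit before assembly, changed by -0.38. Sdhaf1, also a factor for the iron-sulfur subunit, had 2.65 to 7.275 CPM at 0 (median 3.84) and 3.037 to 5.578 CPM at 10 mg/kg/day (median 3.78), a difference of -0.03 ± 0.11 (adjusted p = 0.86). Its groups overlapped almost fully. Of the exonic bases of Sdhaf1 69.6% are shared with a gene on the opposite strand that had 0 counts, and the use of strand in counting is not given in the sources used here.

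Complex III fell in all 9 nuclear subunits (median -0.61). Uqcrc1, a core protein (chromosome 9, 108936633 to 108949623, GRCm38), had 582.0 to 857.2 CPM at 0 (median 663.5), 456.3 to 895.4 CPM at 1 (median 663.4) and 293.1 to 527.1 CPM at 10 mg/kg/day (median 393.7), a change of -0.82 ± 0.07 at the higher dose (adjusted p = 6.97e-12). No mouse at 10 mg/kg/day reached the lowest control. Cyc1, cytochrome c1, which passes electrons to cytochrome c, had 319.5 to 501.0 CPM at 0 (median 384.0) and 173.6 to 286.9 CPM at 10 mg/kg/day (median 223.8), a change of -0.83 ± 0.08 (adjusted p = 2.47e-11). Its groups were separate too. Uqcr11, a small subunit with the least certain change of the class, had 84.64 to 198.2 CPM at 0 (median 136.3) and 74.36 to 126.4 CPM at 10 mg/kg/day (median 99.7), a change of -0.46 ± 0.09 (adjusted p = 3.71e-05). Its groups overlapped in every stratum but the Cyp2b-null females. The other core protein Uqcrc2 (-0.66) and the Rieske iron-sulfur protein Uqcrfs1 (-0.61) had no overlap between doses, while the small subunits Uqcrh (-0.62), Uqcrq (-0.60), Uqcrb (-0.49) and Uqcr10 (-0.49) did.

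Cycs, somatic cytochrome c, carries electrons from complex III to complex IV and triggers apoptosis when released. It had the largest fall of the 45 genes. The 17 controls had 205.4 to 342.6 CPM (median 257.8), the mice at 1 mg/kg/day 204.9 to 342.4 CPM (median 264.8) and those at 10 mg/kg/day 113.9 to 199.9 CPM (median 144.8), a change of -0.84 ± 0.08 at the higher dose (adjusted p = 1.47e-11). Each of the 15 dosed mice lay below each control. By stratum the change was -0.75 in hCYP2B6-Tg females, -0.92 in hCYP2B6-Tg males, -0.79 in Cyp2b-null females and -0.89 in Cyp2b-null males. Its processed pseudogenes in the table, Cycs-ps2 and Cycs-ps3, had 0 counts.

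All 6 complex III assembly factors fell (median -0.46). Uqcc1, which promotes cytochrome b synthesis together with Uqcc2, had 96.74 to 143.6 CPM at 0 (median 119.5) and 56.13 to 97.05 CPM at 10 mg/kg/day (median 66.7), a change of -0.73 ± 0.06 (adjusted p = 8.52e-12). Only the highest dosed mouse reached the lowest control, and the strata were each separated. Bcs1l, the ATPase that inserts the Rieske protein, had 12.87 to 20.56 CPM at 0 (median 16.4) and 6.716 to 14.83 CPM at 10 mg/kg/day (median 9.53), a change of -0.79 ± 0.08 (adjusted p = 2.36e-10). Within strata Bcs1l overlapped only in the hCYP2B6-Tg males. Uqcc2, the partner of Uqcc1, had 53.41 to 105.1 CPM at 0 (median 81.0) and 51.85 to 103.4 CPM at 10 mg/kg/day (median 68.3), a change of -0.20 ± 0.08 (adjusted p = 0.0454). The groups of Uqcc2 overlapped over nearly their whole range, and its call was lost in 17 of 48 fits that each left out 1 library. Uqcc3 (-0.41), Lyrm7, a chaperone of the Rieske protein (-0.48), and Ttc19, which clears Rieske fragments (-0.44), lay between. Ttc19 overlaps Ncor1 on the opposite strand, which rose by 0.18, but only 0.0214% of the exonic bases of Ttc19 are shared with other genes.

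The 6 complex IV subunits fell (median -0.56). Cox5a had 143.3 to 259.6 CPM at 0 (median 179.3) and 92.44 to 155.1 CPM at 10 mg/kg/day (median 117.9), a change of -0.67 ± 0.07 (adjusted p = 2.02e-10). Cox5b, which binds zinc, had 139.8 to 269.4 CPM (median 181.6) and 96.62 to 159.1 CPM (median 120.3) at the same doses, a change of -0.65 ± 0.08 (adjusted p = 5.89e-09). The ranges of the doses overlapped in both genes, and within strata Cox5b was separated in all 4. Cox7b, a small subunit, had 144.4 to 256.8 CPM at 0 (median 185.1) and 107.1 to 181.9 CPM at 10 mg/kg/day (median 134.8), a change of -0.48 ± 0.08 (adjusted p = 2.83e-06), with wide overlap. Cox7c (-0.58), Cox6c (-0.54) and Cox6b1 (-0.52), which sits at the dimer interface, were close to the class median.

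Complex IV assembly was the most divided class: 10 of 15 tested factors fell, none rose, and 5 did not pass (median -0.39). Coa5, needed for an early step of complex IV assembly (chromosome 1, 37417084 to 37430103, GRCm38), had the smallest p of all 45 genes. It had 174.0 to 228.1 CPM at 0 (median 204.9), 171.1 to 228.2 CPM at 1 (median 194.6) and 90.86 to 158.5 CPM at 10 mg/kg/day (mean 117.1), a change of -0.79 ± 0.06 at the higher dose (adjusted p = 2.56e-13). It was the only assembly gene whose dosed mice all lay below all controls. Coa3, which stabilises newly made COX1 protein, had 33.80 to 54.08 CPM at 0 (median 41.4) and 24.46 to 38.05 CPM at 10 mg/kg/day (median 27.0), a change of -0.54 ± 0.06 (adjusted p = 3.85e-09), and its groups overlapped a little. The haem A enzymes Cox10 (-0.40) and Cox15 (-0.26), the copper proteins Cox11 (-0.48), Sco1 (-0.39) and Coa6 (-0.35), Cox14 (-0.40) and Coa7 (-0.62) also fell. Other genes share 48.3% of the exonic bases of Cox11, which overlaps Tom1l1 on the opposite strand (-0.13, not passing). Cox20, a chaperone of COX2 protein, changed by -0.51 ± 0.21 (adjusted p = 0.046). Its call was lost in 18 of 48 fits without 1 library, and 91.1% of its exonic bases are shared, with Hnrnpu on the opposite strand, which rose by 0.42.

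The 5 complex IV factors that did not pass were Surf1, Cox19, Cox18, Cox17 and Cox16. Surf1, which acts in early assembly around the haem of COX1, had 16.58 to 22.09 CPM at 0 (median 19.0) and 15.49 to 30.89 CPM at 10 mg/kg/day (median 19.8), a difference of 0.08 (95% interval -0.05 to 0.21). Cox17, which delivers copper to Sco1 and Cox11, had 2.118 to 4.61 CPM (median 3.13) and 2.785 to 4.524 CPM (median 3.91), a difference of 0.25 (interval -0.0022 to 0.50, adjusted p = 0.0962). The groups overlapped in both genes. Cox16, a factor for COX2 maturation, had 4.582 to 9.817 CPM at 0 (median 6.54) and 5.433 to 8.266 CPM at 10 mg/kg/day (median 6.69), a difference of 0.01 ± 0.09 (adjusted p = 0.907). Cox19, a copper-binding protein, differed by 0.09 (interval -0.05 to 0.24) and Cox18, which inserts COX2 into the membrane, by 0.07 (interval -0.08 to 0.22). For these 5 genes and Sdhaf1 the whole 95% interval lay above the assembly median of -0.40. They were picked for not passing in this same comparison, and the median includes them. Their position therefore does not show a separate group. All 6 were at or below 10.9 CPM per kilobase at 0, a range that also held assembly genes that fell, such as Bcs1l (7.68), Sdhaf3 (2.93) and Sco1 (2.01). In counts over all libraries the 6 had 2376 (Cox17), 2790 (Sdhaf1), 4677 (Cox16), 5215 (Cox18), 13660 (Surf1) and 21130 (Cox19). Bcs1l, Sdhaf3 and Sco1 had 10013, 9168 and 5001. Whether level or counts bear on which genes passed was not tested. Other genes share 56.8% of the exonic bases of Cox16.

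**Figure D2:**
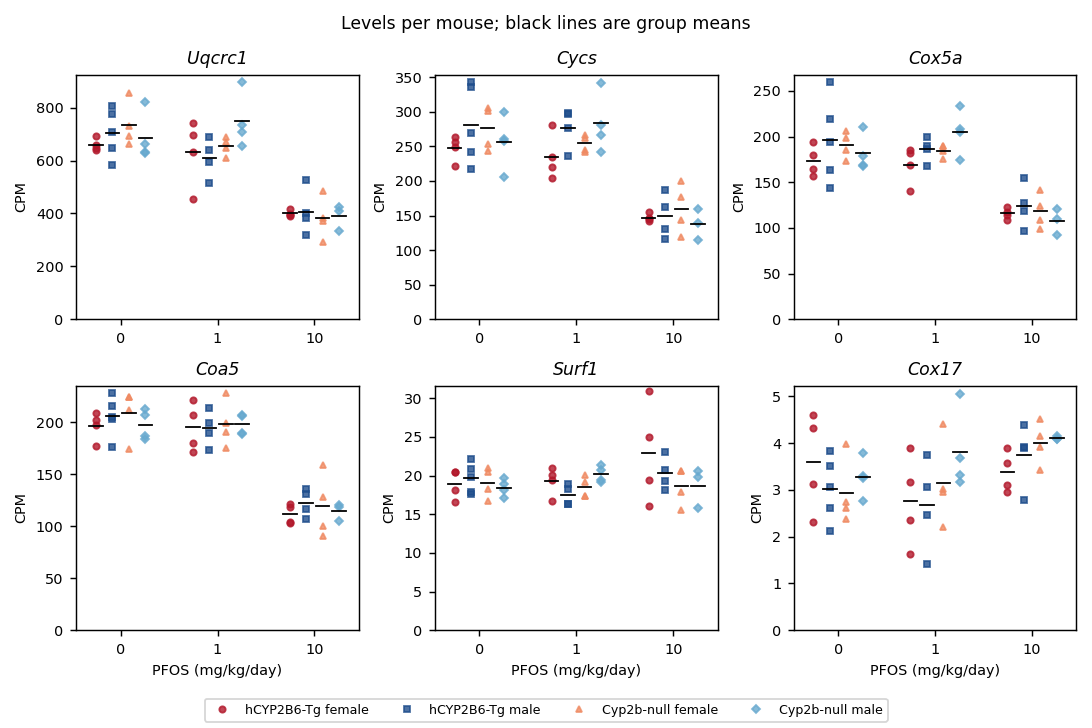
Level in CPM (y axis, linear from 0) of 6 genes in each of the 48 mice by PFOS dose (x axis). Symbols mark the strata and black lines the group means. Uqcrc1, Cycs and Coa5 at 10 mg/kg/day lie wholly below the controls, Cox5a overlaps slightly, and Surf1 and Cox17 overlap widely.

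**Figure D3:**
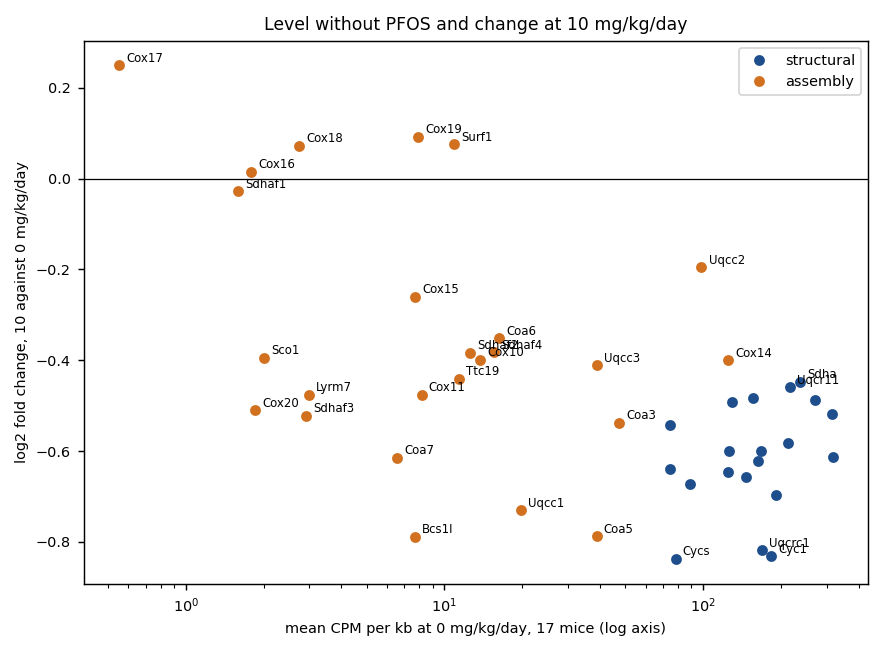
Mean level at 0 mg/kg/day (x axis, CPM per kilobase, log axis, 17 mice) against log2 fold change at 10 mg/kg/day (y axis) for the 45 genes. The 6 genes that did not pass lie near or above 0 on the y axis and at 10.9 CPM per kilobase or less, beside assembly genes of similar level that fell. Whether level bears on which genes passed was not tested.

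Structural and assembly genes were also followed in each mouse, as the mean log2 CPM of either class minus the mean of the 0 mg/kg/day mice of the same stratum. At 10 mg/kg/day the structural mean was -1.02 to -0.33 (median -0.59) and the assembly mean -0.52 to -0.13 (median -0.35), both below 0 in 15 of 15 mice. At 1 mg/kg/day the structural mean was -0.32 to 0.38 (median -0.05) and the assembly mean -0.14 to 0.20 (median -0.01). Among controls they were -0.28 to 0.32 and -0.21 to 0.26. The difference, structural minus assembly, was -0.58 to 0.07 at 10 mg/kg/day (median -0.25, below 0 in 14 of 15 mice). At 1 mg/kg/day it was -0.19 to 0.20 (median -0.07, below 0 in 11 of 16 mice) and among controls -0.15 to 0.24 (median -0.02, below 0 in 10 of 17 mice). The mouse above 0 at 10 mg/kg/day was an hCYP2B6-Tg female. By stratum the mean difference was -0.11 in hCYP2B6-Tg females, -0.30 in hCYP2B6-Tg males, -0.37 in Cyp2b-null females and -0.29 in Cyp2b-null males. The structural genes together took 0.581% ± 0.063 (SD, n = 17) of counts at 0, 0.567% ± 0.069 (SD, n = 16) at 1 and 0.443% ± 0.037 (SD, n = 15) at 10 mg/kg/day. For the assembly genes these shares were 0.0875% ± 0.0044, 0.0882% ± 0.0051 and 0.0740% ± 0.0053. These class values are descriptions without a test.

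**Figure D4:**
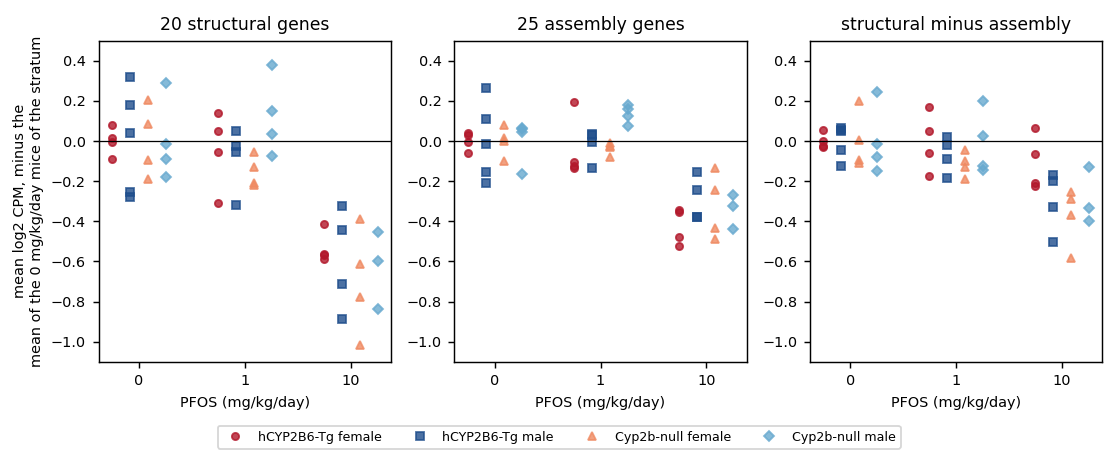
Mean log2 CPM of 20 structural genes, of 25 assembly genes and their difference (y axis), each minus the mean of the 0 mg/kg/day mice of the stratum, by PFOS dose (x axis); each symbol is 1 mouse. At 10 mg/kg/day both means are below 0 in all 15 mice, and the difference is below 0 in 14.

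The low dose gave no call. At 1 against 0 mg/kg/day 0 of the 45 genes passed (0% of all genes), 0 had an unadjusted p under 0.05 in edgeR (3.70% of all genes), and DESeq2 and limma voom also called 0. The structural median was -0.04 and the assembly median -0.01. Averaged over the strata, the 95% intervals of the structural genes spanned -0.24 to 0.18, which leaves out the smallest structural change at 10 mg/kg/day (-0.45, Sdha). That does not hold within strata, where intervals were wider. In hCYP2B6-Tg males they reached down to -0.51 for Sdhb, -0.48 for Uqcrc1, -0.47 for Cyc1 and -0.46 for Uqcrc2. Within strata 0 genes passed as well, where 0 to 0.0128% of all genes did, and DESeq2 and voom called 0 of them. Unadjusted p was under 0.05 for Sco1 (-0.28) in hCYP2B6-Tg females, Cox10 (-0.26) in hCYP2B6-Tg males, and Uqcc3 (0.38) and Sdhaf1 (0.46) in Cyp2b-null males. These are 2.22, 2.22 and 4.44% of the 45 genes, where 4.21, 4.54 and 4.92% of all genes had such a p. In Cyp2b-null females 0 of the 45 had one, beside 2.1% of all genes.

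Between the doses, 10 against 1 mg/kg/day, 46.9% of all genes passed and 22.2% fell. All 20 structural genes fell (median -0.55), and of the assembly genes 19 fell and 1 rose (median -0.41). This comparison shares its 15 high-dose mice with the one above. The smallest p belonged to Coa5 (-0.75), Cycs (-0.82) and Uqcrc1 (-0.74) among genes described above, with Cyc1 at -0.78 and Coa3 at -0.63. The assembly gene that rose was Cox17, the copper chaperone, by 0.31 ± 0.13 from 1.416 to 5.053 CPM at 1 mg/kg/day (median 3.12) to 2.785 to 4.524 CPM (median 3.91). The groups overlapped, and the call was lost in the fit without any filter, with the adipocyte covariate, and in 16 of 48 fits that each left out 1 library.

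Within strata, at 10 against 0 mg/kg/day, structural genes were called lower nearly without exception and assembly genes less often. Called or not, all 20 structural genes had a log2 fold change below 0 in every stratum. Of 25 assembly genes, 21 did in hCYP2B6-Tg females, 19 in hCYP2B6-Tg males, 24 in Cyp2b-null females and 19 in Cyp2b-null males. Over all genes tested these shares were 46.9, 47.4, 47.2 and 50%. In hCYP2B6-Tg females, where 27.7% of all genes passed and 13.5% fell, 19 of 20 structural genes (median -0.51) and 14 of 25 assembly genes (median -0.45) fell. In hCYP2B6-Tg males, where 18.5% of all genes passed (10.6% lower and 7.92% higher), the counts were 20 (median -0.55) and 15 (median -0.42). Cyp2b-null females had 20 structural (median -0.70) and 7 assembly genes lower (median -0.31), with 12.7% of all genes passing, 6.87% lower and 5.83% higher. Cyp2b-null males had 18 (median -0.61) and 12 (median -0.42), with 15.8% passing, 8.36% lower and 7.44% higher. In these 3 strata none of the 45 genes rose, and 1, Cox19, did in hCYP2B6-Tg females, where 14.2% of all genes did. Uqcr11 did not pass in hCYP2B6-Tg females or Cyp2b-null males, nor Uqcrq in the latter.

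Single libraries moved the counts in both sexes. The single-library cases named here are from males, and the ranges for females are given at the end of the text. In hCYP2B6-Tg males, without replicate 3 at 10 mg/kg/day, which held lymph node transcripts, 11 structural genes fell, and without replicate 2 at 10 or replicate 4 at 0 mg/kg/day 12 did. Without replicate 2 at 10 mg/kg/day 9 assembly genes fell. In Cyp2b-null males 10 structural genes fell without replicate 3 at 10 and 11 without replicate 3 at 0 mg/kg/day. With the adipocyte covariate the counts were 10 structural and 6 assembly genes in hCYP2B6-Tg males, and 12 and 4 in Cyp2b-null females. Averaged over the strata, the lower genes among all genes tested went from 3511 to 2704 with this covariate. The share of all genes passing within strata in these fits is not given here, so a general loss of calls cannot be set apart from a change in these genes.

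Some assembly genes had a large or opposite change in a stratum. None of the 45 genes passed in edgeR for a difference in the effect of the dose between sexes or genotypes (lowest adjusted p 0.37 and 0.464). Bcs1l changed most in hCYP2B6-Tg females (-1.15): the controls had 16.29, 16.45, 18.96 and 19.90 CPM and the mice at 10 mg/kg/day 6.959, 7.087, 8.206 and 10.06 CPM. Coa7 changed by -1.01 there, with 21.91, 22.40, 26.68 and 28.55 CPM at 0 and 7.264, 11.18, 13.85 and 17.34 CPM at 10 mg/kg/day. Both genes were separated between doses in that stratum. Bcs1l changed by -0.65 in hCYP2B6-Tg males, -0.62 in Cyp2b-null females and -0.74 in Cyp2b-null males. Cox19 rose in hCYP2B6-Tg females by 0.38, with 26.07, 26.91, 27.30 and 27.41 CPM at 0 and 26.14, 28.04, 36.28 and 49.49 CPM at 10 mg/kg/day. The lowest of its dosed mice was among the controls. The call for Cox19 was lost when any control of that stratum, or replicate 2 or 3 at 10 mg/kg/day, was left out. Sdhaf4 fell in Cyp2b-null males (-0.87), from 10.96, 12.19, 13.90 and 19.06 CPM to 7.027, 7.993 and 8.008 CPM, and had a fold change of 0.14 in hCYP2B6-Tg males, where it did not pass.

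**Figure D5:**
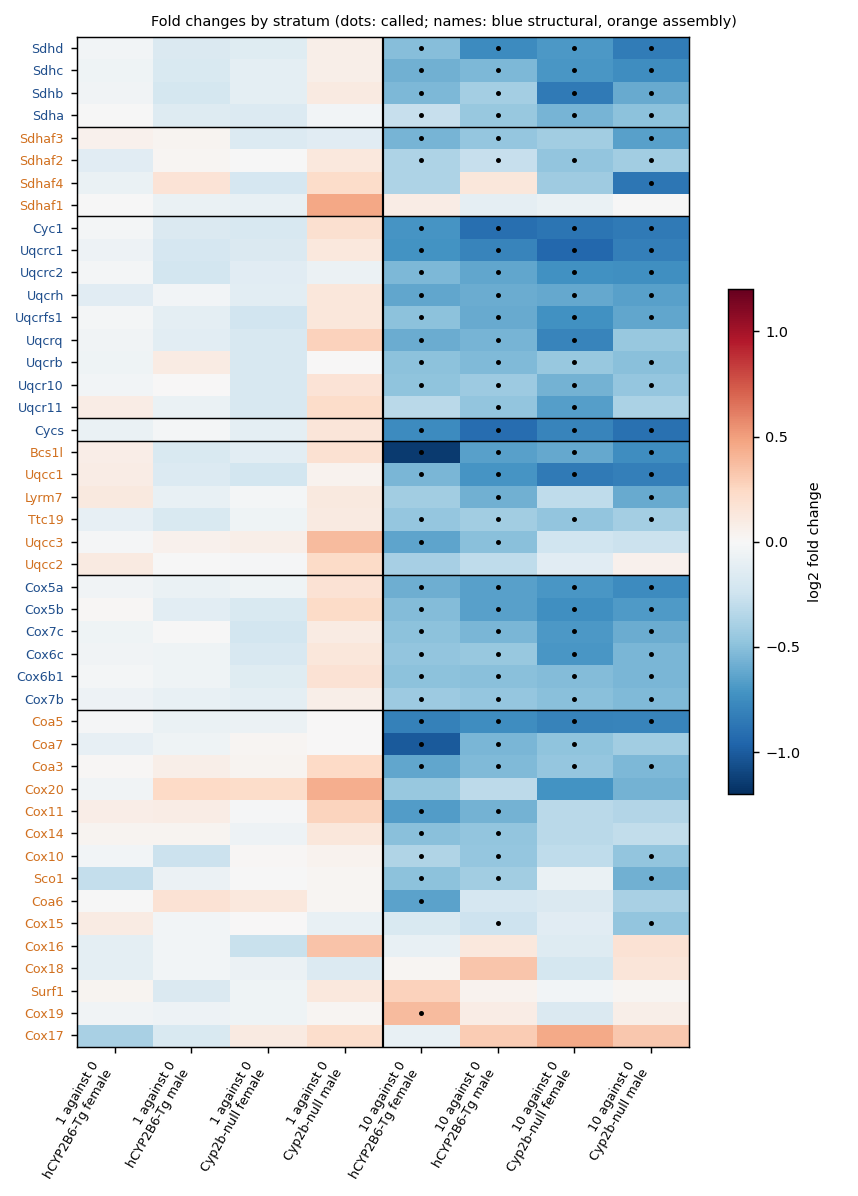
Log2 fold change (colour) of the 45 genes (rows, by role) at 1 and 10 against 0 mg/kg/day in each stratum (columns); dots mark genes that passed. Dots are absent from the 4 low-dose columns, nearly complete for structural genes at 10 mg/kg/day, and patchy for assembly genes.

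Separation between individual mice followed the same division. Over all mice, 6 of 20 structural genes (Sdha, Uqcrc1, Uqcrc2, Uqcrfs1, Cyc1 and Cycs) and 1 of 25 assembly genes (Coa5) had every mouse at 10 below every mouse at 0 mg/kg/day, as did 0.738% of all genes tested; none of the 45 had every mouse above, as did 0.27%. Among hCYP2B6-Tg mice, 18 structural and 14 assembly genes were separated in this way in the females (12.8% of all genes), against 8 and 7 in the males (7.3%). Among Cyp2b-null mice the counts were 18 and 9 for females (7.28% of all genes) and 18 and 13 for males (13.9%). In each of the 4 strata this held for 8 structural and 3 assembly genes, the latter being Uqcc1, Ttc19 and Coa5, and for 1.74% of all genes. It held in no stratum for 0 structural genes, 8 assembly genes and 76.4% of all genes. In Cyp2b-null males Cox17 was separated in the other direction (2.766, 3.249, 3.294 and 3.796 CPM at 0 against 4.084, 4.099 and 4.152 CPM at 10 mg/kg/day), as were 14.3% of all genes in that stratum, and it did not pass there (0.33).

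Differences in the effect of the higher dose were tested between sexes and between genotypes, and none passed for any of the 45 genes. For males minus females 0.128% of all genes passed (0.0578% higher and 0.0706% lower) and the lowest adjusted p among the 45 was 0.37. Unadjusted p was under 0.05 for 2 of them (4.44%, against 9.56% of all genes), Cox15 (-0.20) and Cox18 (0.33), and DESeq2 and voom called 0. For Cyp2b-null minus hCYP2B6-Tg 0% of all genes passed, the lowest adjusted p was 0.464, and unadjusted p was under 0.05 for 3 (6.67%, against 8.84% of all genes), Sdhaf4 (-0.53), Uqcc3 (0.32) and Coa7 (0.33); DESeq2 and voom called 0. The structural median of the genotype difference was -0.12 and the assembly median 0.00. Genes of a class were measured in the same mice and are not independent. Per mouse, the mean structural change at 10 mg/kg/day was -0.53 in hCYP2B6-Tg females and -0.59 in hCYP2B6-Tg males. It was -0.70 in Cyp2b-null females and -0.63 in Cyp2b-null males, beside a pooled SD within groups of 0.192. A p that misses the threshold does not show that the strata responded alike. Without PFOS, 0 of the 45 genes passed between genotypes, where 0% of all genes did. Unadjusted p was under 0.05 for 1 of them (2.22%, against 3.43% of all genes), Uqcc3 (-0.23, Cyp2b-null minus hCYP2B6-Tg), and DESeq2 and voom called 0. Between sexes 7.59% of all genes passed (4.73% higher in males, 2.86% lower) and again 0 of the 45. Bcs1l, lower in males by a log2 difference of -0.31, was nearest (adjusted p = 0.0727), the only one with an unadjusted p under 0.05 (2.22%, against 20.8% of all genes), called by voom and not by DESeq2. It had 16.29 to 20.56 CPM in the 8 control females and 12.87 to 19.74 CPM in the 9 control males, with overlap.

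Of related lists at 10 against 0 mg/kg/day, where 22.5% of all genes fell and 25% rose, 3 held falls and no rise, and the isoform and copper lists held both. All 4 mitochondrially encoded subunits of complexes III and IV fell (median -0.91): mt-Co3 (-1.24), mt-Co2 (-1.12), mt-Co1 (-0.70) and mt-Cytb (-0.68). Of 9 complex IV subunits with isoforms or partners 4 fell and 2 rose: Cox7a1, the muscle isoform, fell by 1.24 ± 0.14 on the log2 scale and its counterpart Cox7a2 by 0.50 ± 0.06. The 2 that rose were Cox8a (0.58) and Cox6a1 (0.35), named after their values were seen. Of 15 tested further assembly and expression factors 11 fell and none rose, led by Taco1, a translational activator of COX1 (-1.03 ± 0.07, adjusted p = 2.08e-15), and Tmem177, a COX2 factor (-0.66). In haem synthesis 6 of 8 genes fell, with Alas1, the first enzyme, at -0.59 and Cpox at -0.26. Among 7 genes of copper supply 3 rose and 2 fell (median -0.03): Mt1, a metallothionein that binds copper and zinc, rose by 2.06 ± 0.28, and Slc25a3, the mitochondrial carrier of phosphate and copper, fell by 0.39 ± 0.06.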

How the data were processed

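RNA of 48 gastrocnemius muscles was sequenced as messenger RNA, per the labels. The authors deposited raw counts per gene in 1 table. The submitters' processing notes name HISAT2 and GRCm39. The counting program and its use of strand: not given in the sources used here. Coordinates in the table are those of GRCm38: 44 of the 46 genes have the same start and end in GENCODE vM21. Each of the 48 columns was assigned by its name to 1 sample.

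From these counts, genes were filtered with filterByExpr, scaled by TMM and fitted with edgeR's quasi-likelihood functions (edgeR 4.0.16, R 4.3.3; 1 coefficient per group, biological coefficient of variation 23.5%, 36 residual degrees of freedom). Tests were two-sided, with Benjamini-Hochberg adjustment over all 15583 genes tested and a threshold of 0.05, for 15 contrasts; averages weigh the strata equally. The 95% intervals use the degrees of freedom of the test. CPM use TMM-scaled totals, log2 CPM a prior count of 0.5. The fit was tested on simulated counts with few changed genes, changes in both directions and the same dispersion for every gene. That simulation had no shift in composition between doses, so it cannot check the library size scaling. Detail is given to the 2 smallest and the largest p of each role, and Cycs. The members and lists were chosen with earlier results of these data known. Alternatives were DESeq2 (1.42.0) and its size factors, limma voom (3.58.1), unscaled totals, totals without mitochondrial and the 20 most abundant genes, 2 other filters, a replicate block, an adipocyte covariate, leaving out 6 libraries, and leaving out each library. Nothing says which litters the mice came from. The p-values set each estimated difference against the spread between these mice. Counting error alone does not set the precision of the estimates. Sequences came from the RefSeq promoter table; protein sequences were not used here.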

Additional observations from a re-analysis of the deposited data

Results flagged for a closer look

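The class means and the CPM of the 19 genes described in detail were searched, in each group of 4 or 5 mice, for a mouse set apart from the others of its group by Dixon's criterion. Of 242 sets of values 11 were marked, and chance marks about 1 in 20. Among hCYP2B6-Tg females at 10 mg/kg/day, replicate 3 had the highest mean log2 CPM of the structural genes (7.56, others 7.38 to 7.41) and the highest Cox5b (150.1 CPM, others up to 120.3). The mean log2 CPM of the assembly genes was high in replicate 3 of the hCYP2B6-Tg females at 1 mg/kg/day (4.49, others 4.16 to 4.19) and low in Cyp2b-null male replicate 1 at 0 (4.12, others 4.33 to 4.35). Cyp2b-null male replicate 3 at 0 was high in Sdhc (283.0 CPM, others 211.7 to 223.4) and Sdhb (489.2 CPM, others 302.1 to 317.6). That library also had the highest summed slow fibre markers of all mice.

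Sdhb was low in replicate 3 of the hCYP2B6-Tg males at 10 mg/kg/day (202.0 CPM, others 278.8 to 291.1), a library with lymph node transcripts. Sdhaf1 was high in hCYP2B6-Tg male replicate 4 at 0 (7.275 CPM, others 3.23 to 4.236), and Uqcc1 in replicate 3 of the Cyp2b-null males at 1 mg/kg/day (149.8 CPM, others 105.3 to 110.5). Cox7b was low in replicate 1 of the hCYP2B6-Tg females at 1 mg/kg/day (152.9 CPM, others 184.7 to 190.8). Coa3 was high in Cyp2b-null female replicate 3 at 0 (44.84 CPM, others 40.71 to 41.37).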

How the results depend on the processing

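DESeq2, its size factors in edgeR and the replicate block kept all 85 results on their side of the threshold. With the replicate block 20 structural and 19 assembly genes were lower at 10 against 0 mg/kg/day; replicate numbers did not pair mice (mean correlation of deviations -0.024 over 253 pairs with the same number, 0.00746 with another, 6 of 48 mice closest to their own number). On unscaled totals 1647 genes were lower and 7519 higher, against 3511 and 3892, and the log2 fold change of Uqcc2 turned from -0.195 to 0.017. There 5 assembly genes were higher at 10 against 0 and 5 at 10 against 1, with structural medians of -0.39 and -0.35 and assembly medians of -0.18 and -0.20; structural genes lower were 11 in hCYP2B6-Tg females and 10 in hCYP2B6-Tg males, assembly genes lower 4 in hCYP2B6-Tg males, against 2 in Cyp2b-null females, and members higher 2 in hCYP2B6-Tg females, 1 in hCYP2B6-Tg males, 1 in Cyp2b-null females. Assembly genes higher at 10 against 1 were 2 with totals without abundant genes, with the stricter filter and with voom, and 0 with no filter and with the adipocyte covariate. Members higher in hCYP2B6-Tg females were 0 with no filter and with voom. Without the 6 libraries, hCYP2B6-Tg males had 11 structural and 7 assembly genes lower, and Cyp2b-null males 9 structural. The adipocyte covariate left 10 and 6 in hCYP2B6-Tg males, with 12 and 4 in Cyp2b-null females. Between sexes at 0, 1 member (Bcs1l) passed on unscaled totals, with the stricter filter, with voom, without the 6 libraries and with the covariate. Where fewer libraries were fitted the test had fewer mice; otherwise the cause was not tested.

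Leaving out 1 library gave, at 10 against 0, 20 structural, 17 to 19 assembly genes lower and 0 to 1 higher (Cox17, without Cyp2b-null female replicate 4 at 0); at 10 against 1, 0 to 2 assembly genes higher; in hCYP2B6-Tg females 0 to 2 members higher; in hCYP2B6-Tg males 11 to 20 structural and 9 to 15 assembly genes lower; in Cyp2b-null males 10 to 18 structural genes lower; and between sexes 0 to 1. In these fits 14 to 19 structural and 13 to 15 assembly genes were lower in hCYP2B6-Tg females. In Cyp2b-null females 16 to 20 structural and 5 to 8 assembly genes were. Cox20, Cox17, Sdhaf1 and Cox16 had the lowest counts of the tested genes, 1079 to 4677 over all libraries. Whether depth limited their results was not tested.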
